A study of Homo sapiens with 48 samples.

Results

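Introns of 150 nt or less were followed in 48 RNA-seq libraries of IMR90 ER:RAS cells after knockdown of the splicing factors SF3B1 or RBM39. They were chosen by measured values: of 26089 introns whose retention and coverage were listed in every library, 3419 were at most 150 nt long, and the 3362 with a mean retention below 10% over the 16 control libraries were kept. These 3362 introns make up 12.9% of the introns measured and lie in 1563 genes. Their length ran from 56 to 150 nt with a median of 98 nt. Retention is given as PSI, the percentage of a gene's transcripts spliced at that place which still hold the intron, computed by the authors with vast-tools from exon-intron and exon-exon junction reads.

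IMR90 is an established line of human lung fibroblasts, and all the cells carried an HRAS G12V oncoprotein fused to the oestrogen receptor (ER:RAS). Cells received 4-hydroxytamoxifen (4OHT), which switches the fusion on and drives oncogene-induced senescence, or its solvent DMSO for 6 days, were then transfected with siRNA, and stayed for 2 more days in medium with 0.5% FBS. Each treatment had 8 libraries with a non-targeting siRNA (siNT1 or siNT2), 8 with siSF3B1 (siSF3B1-13 or siSF3B1-16) and 8 with siRBM39 (siRBM39-06 or siRBM39-08), so each siRNA had 4 replicates. Nothing in the labels says that the replicates were separate cultures, so p-values measure the spread between these libraries only, which may be technical. The model is 1 cell line with 1 oncogene, serum was low in all groups, and both siRNAs leave part of the target mRNA in place.

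Each target was lower with its own siRNAs. SF3B1 stood at 311 to 396 CPM (counts scaled to the library total) in the DMSO siNT libraries and at 30.4 to 35.2 with siSF3B1, and at 315 to 340 and 25.3 to 30.7 in 4OHT. RBM39 stood at 158 to 185 CPM in DMSO siNT and 24.2 to 30.96 with siRBM39, and at 115 to 127 and 13.7 to 18.4 in 4OHT. The other target moved as well: RBM39 stood at 277 to 319 CPM with siSF3B1 in DMSO and 234 to 260 in 4OHT, above siNT, and SF3B1 at 390 to 544 and 224 to 445 with siRBM39, overlapping siNT. The part of this in the differences between the knockdowns was not tested. The fibroblast label was borne out by its markers, whose summed level was 36946 to 59092 CPM in the DMSO libraries and 11483 to 16419 CPM in the 4OHT libraries, against 8.87 to 65.4 CPM for 8 listed epithelial, blood and endothelial markers. Of these the blood markers PTPRC and CD3E had a median of 0, and KRT8, an epithelial keratin, reached 53.3 CPM in 1 library; the part of these cells in any result was not tested. Total gene counts ran from 31467221 to 52734636 per library. In bulk RNA, fewer cells of a kind and less RNA per cell cannot be told apart.

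Introns are removed by the spliceosome, which recognises a 5′ splice site at the start of the intron, a branch point near its end and a 3′ splice site that follows a stretch of pyrimidines. In most human genes the exon is the unit that is recognised first, whereas a very short intron can be recognised as a unit across its own length, and short introns tend to sit in GC-rich genes. SF3B1 is the part of the U2 snRNP that holds the branch point, and RBM39 is an RNA-binding protein related to U2AF2 that acts on a narrower set of splice sites. A retained coding intron usually brings a stop codon or a frame shift, and such transcripts are often held in the nucleus or degraded.

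Of the 3362 introns, 3345 could be placed on the GRCh37 annotation (GENCODE) by chromosome, strand, intron length and the lengths of the neighbouring exons. 3329 began with GT and ended with AG, 15 were GC-AG and 1 was AT-AC. 3331 lay between coding exons. If retained, 2129 would bring an in-frame stop codon, 657 would shift the frame without a stop of their own and 233 would keep the frame with no stop. The remaining 312 differed between transcripts.

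The sequences below are 9 of the introns on which the results turn, read from GRCh37 on the strand of the gene. They were printed because they hold the most retained introns with siSF3B1 (GIGYF1, TENC1, DVL1, RNF44), those with the most retention with siRBM39 (FAM38A, ILK), the intron followed by the study (CHD4), 1 that was lower with siSF3B1 than with siRBM39 (COL7A1) and 1 AT-rich intron (SLC38A2). Capitals mark the first 6 bases, the last 3 bases and, where there is one in the last 60 bases, the CTNAC match nearest to the end, a rough form of the human branch point consensus.
GIGYF1 intron, chr7:100279395-100279486, minus strand: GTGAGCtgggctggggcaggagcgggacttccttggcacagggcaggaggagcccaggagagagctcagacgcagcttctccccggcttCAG
TENC1 intron, chr12:53452422-53452497, plus strand: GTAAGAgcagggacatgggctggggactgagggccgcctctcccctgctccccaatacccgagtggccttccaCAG
DVL1 intron, chr1:1273817-1273901, minus strand: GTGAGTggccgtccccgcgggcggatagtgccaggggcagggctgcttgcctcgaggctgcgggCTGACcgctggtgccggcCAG
RNF44 intron, chr5:175956389-175956523, minus strand: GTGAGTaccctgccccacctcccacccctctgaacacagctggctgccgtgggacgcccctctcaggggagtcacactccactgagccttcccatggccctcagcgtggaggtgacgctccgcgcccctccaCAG
FAM38A intron, chr16:88786692-88786792, minus strand: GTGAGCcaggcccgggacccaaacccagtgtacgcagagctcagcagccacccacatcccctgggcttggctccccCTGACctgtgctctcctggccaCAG
ILK intron, chr11:6630388-6630529, plus strand: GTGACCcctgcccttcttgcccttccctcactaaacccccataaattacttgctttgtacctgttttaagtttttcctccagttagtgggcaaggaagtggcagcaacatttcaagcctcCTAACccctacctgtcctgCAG
CHD4 intron, chr12:6692280-6692363, minus strand: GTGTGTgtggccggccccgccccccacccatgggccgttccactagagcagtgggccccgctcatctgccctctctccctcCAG
COL7A1 intron, chr3:48626222-48626302, minus strand: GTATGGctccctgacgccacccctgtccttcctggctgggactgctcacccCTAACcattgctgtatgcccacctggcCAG
SLC38A2 intron, chr12:46756165-46756276, minus strand: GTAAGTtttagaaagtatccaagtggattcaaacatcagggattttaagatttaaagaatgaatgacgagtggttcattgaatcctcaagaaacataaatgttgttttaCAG
CTNAC was searched on the transcribed strand only and was present in 4 of these introns, ending 16 (DVL1), 20 (FAM38A), 17 (ILK) and 25 (COL7A1) bases before the end of the intron. Over all short introns placed on the annotation, 38.8% held it in the last 60 bases, against 25.04% of introns of at least 2000 nt. All 9 are coding introns. SLC38A2 was 31.3% GC and ILK 49.3%, whereas the others ran from 63.0 to 75.3% GC.

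Short introns were spliced almost completely in the control cells. Mean PSI over the 3362 introns was 0.549 in the lowest DMSO siNT library, 0.850 at the median and 1.07 in the highest, and 0.851, 0.891 and 0.944 in the 4OHT siNT libraries. With siSF3B1 the same mean was 3.58, 3.70 and 4.39 in DMSO and 4.29, 4.43 and 4.83 in 4OHT. With siRBM39 it was 1.28, 1.45 and 1.64 in DMSO and 1.40, 1.59 and 1.75 in 4OHT. No knockdown library reached down into the siNT range of its treatment, and every siSF3B1 library lay above every siRBM39 library. These siNT levels chose the introns, so the distances from siNT are a description.

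**Figure D1:**
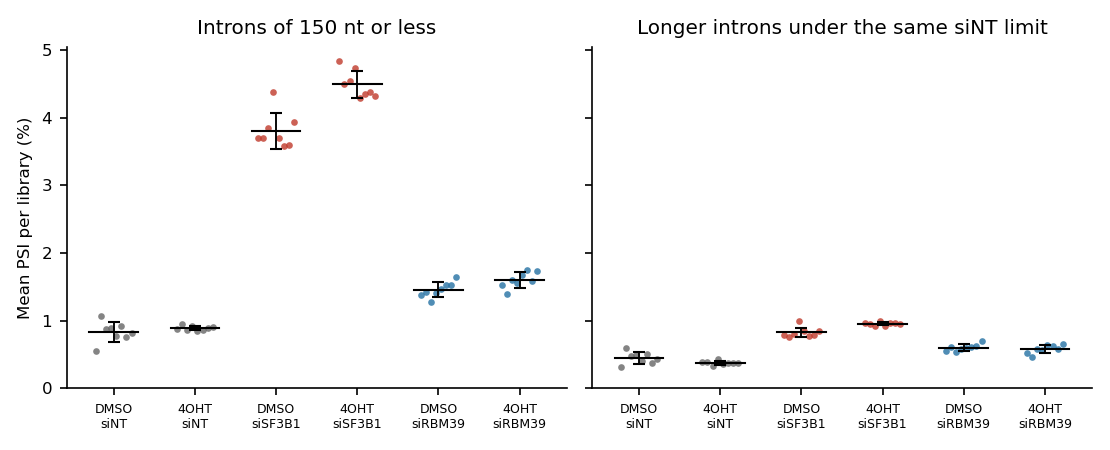
Mean PSI (percent) per library over short introns (at most 150 nt) and over longer introns (at least 2000 nt), by treatment and siRNA. Points are libraries, and bars give the mean ± SD of 8 libraries. In DMSO, short introns sat at 0.833 ± 0.151 with siNT, 3.81 ± 0.262 with siSF3B1 and 1.46 ± 0.111 with siRBM39, and the longer introns at means of 0.447, 0.825 and 0.602.

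The difference between the knockdowns did not use the siNT values and could be tested. Mean PSI over short introns was 2.35 points higher with siSF3B1 than with siRBM39 in DMSO and 2.89 points higher in 4OHT (two-sided exact permutation test, n = 8 and 8, p = 0.000155 in each, the smallest the design can give, adjusted p = 0.000497 over 16 tests). Introns of at least 2000 nt stood at a mean of 0.825 and 0.956 with siSF3B1 and 0.602 and 0.578 with siRBM39. The gap between short and long introns was thus 2.13 points wider with siSF3B1 in DMSO and 2.51 points wider in 4OHT (exact permutation, adjusted p = 0.000497 in each). A second independent reading chose the introns on siNT1 alone and compared the knockdowns with siNT2. Mean PSI was then 2.98 points above siNT2 with siSF3B1 in DMSO and 3.60 points in 4OHT, and 0.629 and 0.710 points above it with siRBM39 (exact permutation, n = 8 and 4, p = 0.00404 in each, the smallest this design can give, adjusted p = 0.00431). The gap to long introns widened by 2.59, 3.03, 0.458 and 0.509 points in the same order, with the same p. With siRBM39 the median over introns differed from siNT2 by 0 points in DMSO and 0.00688 in 4OHT. Over the 3362 introns that median was 0 in every siNT library, so it cannot show how many introns moved. Against all siNT libraries, as a description, 586 introns in DMSO and 611 in 4OHT were more than 1 point higher with siRBM39. Those more than 1 point lower numbered 68 and 64.

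Differences of 5 points or more were limited to a minority of the introns, whereas smaller ones were widespread with siSF3B1. In 4OHT, 1592 introns were more than 1 point higher with siSF3B1 and 34 more than 1 point lower. The median over introns was at most 0.06 in every siNT and siRBM39 library, and its median over libraries was 0.945 with siSF3B1 in DMSO and 1.18 in 4OHT. With siSF3B1 in 4OHT, 1736 introns (51.6%) moved by less than 1 point, 886 were 1 to 5 points higher, 356 were 5 to 10 points higher, 226 were 10 to 20 points higher and 124 were at least 20 points higher. In 4OHT with siRBM39, 2687 (79.9%) stayed within 1 point and 4 reached 20 points. 523 introns were at a PSI of 0 in every siNT library and 102 in all 48 libraries. An intron had a median of 72 junction reads per library, at which a count of 0 allows a PSI of up to 4.17 (3 reads, counting error only), so low retention was not detectable for many of them.

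Introns were called where limma on the logit of PSI, fitted over all 26089 introns, gave a Benjamini-Hochberg adjusted p under 0.05 and the group means differed by at least 5 points. Against siNT with siSF3B1, 603 short introns were called in DMSO (602 higher and 1 lower, 17.9% of them, where 7.87% of all introns were called) and 701 in 4OHT (all higher, 20.9% against 9.65%). With siRBM39 the numbers were 94 in DMSO (93 higher and 1 lower, 2.80% against 1.99%) and 106 in 4OHT (104 higher and 2 lower, 3.15% against 2.18%). Nothing is read from these shares, since siNT chose the introns. The 8 knockdown and 8 siNT libraries did not overlap for 431, 550, 34 and 45 of the called introns in the same order, which is 12.8%, 16.4%, 1.01% and 1.34% of the short introns, where 5.03%, 6.86%, 0.801% and 0.977% of all introns were called without overlap. The median difference was 0.70 points with siSF3B1 in DMSO and 0.83 in 4OHT, against 0.13 and 0.20 over all introns.

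With introns chosen on siNT1 and siNT2 as the control, 3360 short introns entered. 599 were called for siSF3B1 in DMSO where 7.64% of all introns were, 690 in 4OHT (689 higher and 1 lower) where 9.29% were, 79 for siRBM39 in DMSO (78 higher and 1 lower) where 1.69% were, and 86 in 4OHT where 1.76% were. As shares of the short introns these counts are 17.8%, 20.5%, 2.35% and 2.56%. Called introns were shared between the treatments, whose controls are separate. Of the introns higher with siSF3B1, 563 were so in both treatments, which is 93.5% of the 602 in DMSO and 80.3% of the 701 in 4OHT. For siRBM39, 59 were so in both, 63.4% of 93 and 56.7% of 104. The overlap over all introns was not computed, so nothing particular to short introns is read from these shares.

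The 2 siSF3B1 siRNAs gave close values, whereas the 2 siRBM39 siRNAs were less alike across introns. Over the 3362 introns, siSF3B1-13 against siNT1 was 3.06 points higher on average in DMSO and 3.75 in 4OHT, and siSF3B1-16 against siNT2 was 2.89 and 3.45 points higher. The differences correlated across introns with r = 0.951 in DMSO and 0.956 in 4OHT (Spearman's rho 0.795 and 0.815). For siRBM39-06 and siRBM39-08 the means were 0.522 and 0.723 points in DMSO and 0.619 and 0.803 in 4OHT, with r = 0.735 and 0.789 (rho 0.376 and 0.389). Introns share libraries and are not replicates, so no p is given. Of the introns called higher, 587 of 701 were at least 5 points higher with both siSF3B1 siRNAs in 4OHT, and 76 of 104 with both siRBM39 siRNAs. These introns were called on the libraries of both siRNAs together, so the counts are a description.

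Retention was highest in the shortest class of introns. The 406 introns of 56 to 80 nt had a mean PSI of 1.58 with siNT in DMSO and 1.81 in 4OHT, 6.52 and 7.48 with siSF3B1, and 2.45 and 2.92 with siRBM39. In the test that did not use siNT, siSF3B1 against siRBM39 in 4OHT, 28.6% of them were called, then 17.5% at 81 to 100 nt, 15.4% at 101 to 120 nt and 13.2% at 121 to 150 nt. Beyond the limit the share was 11.98% at 151 to 300 nt, 8.71% at 301 to 1000 nt, 5.77% at 1001 to 1999 nt and 2.13% at 2000 nt or more, so each class was below the one before it. Against siNT, which chose the introns, the shares with siSF3B1 in 4OHT are a description. They ran 33.5%, 20.7%, 18.8%, 16.5%, 14.96%, 11.1%, 6.62% and 2.62% over the same classes. For siRBM39 in 4OHT they were 4.93%, 2.76%, 3.03%, 3.07%, 2.82%, 2.18%, 1.38% and 0.711%, and in DMSO 4.43%, 1.91%, 3.16%, 3.2%, 2.58%, 2.05%, 1.53% and 0.580%. The siRBM39 shares thus did not fall from class to class within the short introns.

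With siSF3B1 the share called was higher in each class of GC content than in the one before it. Of the 570 introns below 40% GC, siSF3B1 against siRBM39 in 4OHT called 3.68%, then 7.53% of 279 at 40 to 50%, 13.6% of 788 at 50 to 60%, 20.8% of 1208 at 60 to 70% and 36% of 500 at 70% or more. For siSF3B1 against siNT in 4OHT, as a description, the shares were 4.56%, 10.8%, 18.02%, 25.2% and 38.8%. For siRBM39 against siNT the shares were 0.702%, 1.79%, 3.17%, 4.22% and 4.2% in 4OHT. In DMSO they were 0.702%, 1.79%, 2.79%, 4.14% and 2.6%, so neither series rose in the last class. The introns called higher with siSF3B1 in 4OHT had a median GC of 65.6%, against 58.3% in those not called, and their flanking exon ends had 59% against 56%. They were slightly shorter (median 93 against 99 nt) and had a higher siNT PSI (median 1.51 against 0.152). The last 20 bases had a median of 75% pyrimidines in both, and CTNAC was present in 38.02% and 38.97%. Short introns are also the GC-rich ones (median 65.8% GC at 56 to 80 nt against 42.1% at 2000 nt or more), and the part of length apart from GC was not tested.

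**Figure D2:**
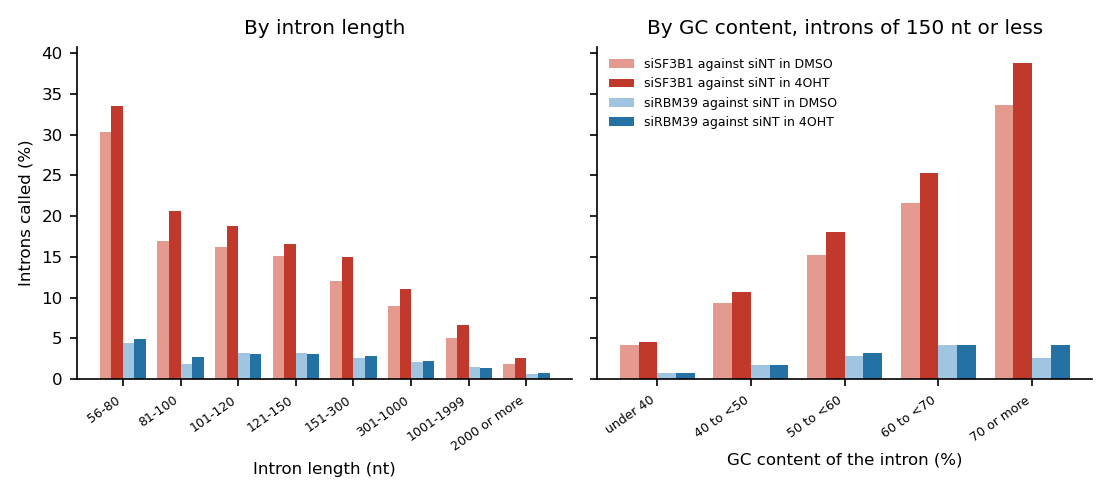
Percentage of introns called, by intron length in nt (left) and by GC content of short introns in percent (right), for both knockdowns against siNT in DMSO and 4OHT. With siSF3B1 in 4OHT the share fell from 33.5% at 56 to 80 nt to 2.62% at 2000 nt or more, and rose from 4.56% below 40% GC to 38.8% at 70% GC or more.

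Reads over both ends of the intron were more numerous in the knockdown groups. Over 3277 short introns, reads across the upstream exon-intron junction came to a median of 0.335 per 100 exon-exon reads in DMSO siNT, 1.43 with siSF3B1 and 0.553 with siRBM39, and in 4OHT to 0.424, 2.01 and 0.747. At the downstream junction they came to 0.477, 1.87 and 0.792 in DMSO and to 0.619, 2.82 and 1.03 in 4OHT. The ratio of upstream to downstream reads stayed between 0.692 and 0.749 in the group medians. For single introns, coverage was not always even. The authors' table holds a binomial test per library of whether the junctions and the body of the intron are evenly covered, and 2410 introns (71.7%) had a balance p of at least 0.05 in all 48 libraries. Among these, siSF3B1 against siRBM39 called 119 in DMSO (4.94%, where 2.27% of all balanced introns were called) and 166 in 4OHT (6.89% against 2.87%). Against siNT the numbers were 152 and 201 for siSF3B1 (6.31% and 8.34%, against 2.65% and 3.54%) and 10 and 14 for siRBM39 (0.415% and 0.581%, against 0.401% and 0.406%), in DMSO and 4OHT. For each of these comparisons the share was lower than among all 3362 introns. A missing balance p counted as even, and an intron with few intron reads can hardly fail the test. The filter thus favours introns with little retention, so nothing is read from the lower shares.

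Of the 70 short introns chosen by the naming rule, 9 were balanced in all 48 libraries. They were an AGRN intron of 131 nt, 1 of the FASN introns and the introns of VASP, COPA, APEH, KIAA0415, ANAPC2, LAMP1 and MKNK2. In the others, junction reads and reads of the intron body were uneven in at least 1 library, and the part of this in their PSI was not tested.

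CHD4, the ATPase of the NuRD chromatin remodelling complex, had 8 short introns of which 1, of 84 nt and 71.4% GC, was called. Its PSI was 0.89, 3.75 and 7.87 (lowest, median, highest) in DMSO siNT, 36.7, 41.5 and 59.4 with siSF3B1 and 12.2, 20.5 and 26.01 with siRBM39. In 4OHT it was 4.89, 6.38 and 16.4, then 32.3, 49.6 and 55.1, then 14.3, 21.6 and 26.02. The 3 conditions formed steps, and the siSF3B1 libraries lay above all the siRBM39 libraries. The difference between the knockdowns was 24.2 points in DMSO and 25.01 in 4OHT (limma, adjusted p = 4.99e-06 and 3.16e-06). CHD4 counts fell with siSF3B1 by 0.73 ± 0.05 (SE) on the log2 scale in DMSO and by 0.65 ± 0.05 in 4OHT (edgeR, adjusted p = 1.17e-17 and 4.72e-16). With siRBM39 they fell by 0.25 in DMSO (edgeR, adjusted p = 4.63e-05) and differed by -0.09 in 4OHT (edgeR, adjusted p = 0.124).

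Other chromatin and transcription genes had introns whose PSI was higher with siSF3B1, most of them near the siNT level with siRBM39. In HSF1, the transcription factor of the heat shock response, a 70-nt intron had a PSI of 4, 6.67 and 13.2 in 4OHT siNT, 58.2, 72.2 and 79.6 with siSF3B1 and 2.67, 10 and 21.3 with siRBM39. Its siRBM39 libraries overlapped siNT, and siSF3B1 exceeded siRBM39 by 60.3 points (limma, adjusted p = 3.15e-16). HSF1 counts did not pass the test in 4OHT (log2 fold change 0.14, edgeR, adjusted p = 0.213). In SUPT5H, the elongation factor SPT5, only 1 of 11 short introns was called: its PSI was 0, 0 and 3.45 in 4OHT siNT, 20.8, 29.4 and 47.2 with siSF3B1, and 0, 1.45 and 3.45 with siRBM39. In MED15, a Mediator subunit, a PSI of 1.23, 3.86 and 9.86 became 30, 41.5 and 47 with siSF3B1 in 4OHT, and MED15 counts fell by 1.11 on the log2 scale (edgeR, adjusted p = 5.44e-22). RUVBL2, an AAA+ ATPase of several remodelling complexes, was higher with both siRNA targets: 0, 1.42 and 2.47 in 4OHT siNT, 17.2, 26.2 and 35.1 with siSF3B1, and 4.62, 14.6 and 32.1 with siRBM39.

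The introns of DVL1, GIGYF1 and RNF44 were among those with the largest differences from siNT. In DVL1, a Dishevelled protein of the Wnt pathway, the 85-nt intron printed above had a PSI of 0, 1.1 and 6.09 in 4OHT siNT, 39.1, 52.3 and 71 with siSF3B1, and 2.35, 4.21 and 8.16 with siRBM39. In GIGYF1, an adaptor of growth factor signalling and translational repression, the values were 0, 14.5 and 16.9, then 56.8, 62.5 and 78.2, then 3.7, 15.7 and 31.7. In RNF44, a RING finger protein, they were 1.37, 6.51 and 16.1, then 47.5, 58 and 67.8, then 3.12, 7.86 and 11.7. In these 3 introns siSF3B1 stood clear of both other groups, by 49.4, 47.7 and 49.7 points over siRBM39 (limma, adjusted p = 2.66e-12, 1.29e-08 and 7.31e-12). Their genes went different ways: in 4OHT siSF3B1 the counts of GIGYF1 rose by 1.09 ± 0.11 and those of RNF44 by 1.55 ± 0.06 on the log2 scale (edgeR, adjusted p = 3.36e-12 and 2.28e-26), and DVL1 differed by -0.18 (edgeR, adjusted p = 0.104). MKNK2, a kinase that phosphorylates eIF4E downstream of MAPK, had 1 of the 9 balanced introns: PSI was 0.39, 2.15 and 3.81 in 4OHT siNT, 30, 36.2 and 48.1 with siSF3B1, and 0.4, 1.5 and 2.94 with siRBM39, and MKNK2 counts fell by 0.47 (edgeR, adjusted p = 3.9e-14).

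Further introns with large differences from siNT in 4OHT siSF3B1 lay in PPP4C, the catalytic subunit of protein phosphatase 4 (52.5 points), CPSF3L, the Integrator endonuclease (47.5), LMBR1L (45.6), FASTK (42.6) and CIC, a repressor that RAS signalling relieves (42.3). The largest of all was the 147-nt ZYX intron, 80.95% GC and upstream of the coding sequence. ZYX encodes zyxin of focal adhesions. Its PSI was 0, 4.94 and 18.2 in 4OHT siNT, 64.3, 78.5 and 86.3 with siSF3B1, and 0, 5.55 and 20 with siRBM39, so the siRBM39 libraries covered the same range as siNT. Only 1 of the 5 short ZYX introns was called.

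ILK, the integrin-linked kinase, had 7 short introns of which 2 were called in every comparison with siNT. The intron printed above had a PSI of 3.67, 6.41 and 9.77 in DMSO siNT, 24.2, 28.9 and 34.8 with siSF3B1, and 21.7, 36.2 and 51.6 with siRBM39. In 4OHT it was 3.18, 7.22 and 11.4, then 25.2, 29.3 and 48.3, then 23.2, 35.1 and 45.8. Both knockdowns overlapped each other and stood above siNT, and the difference between them was -5.996 points in DMSO and -3.71 in 4OHT (limma, adjusted p = 0.337 and 0.579). ILK counts fell in all 4 comparisons, by 0.86 and 1.02 with siSF3B1 and by 0.93 and 1.18 with siRBM39 on the log2 scale, in DMSO and 4OHT (edgeR, largest adjusted p = 1.69e-11).

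TENC1, which encodes tensin 2 of focal adhesions, had an intron of 76 nt with a PSI of 4.04, 7.12 and 11.8 in 4OHT siNT, 55.3, 58.3 and 72.4 with siSF3B1, and 28.3, 37.1 and 60.7 with siRBM39. It was the largest difference from siNT with siRBM39 in 4OHT (33.99 points, and 19.3 in DMSO), and siSF3B1 was still 18.7 points higher in 4OHT (limma, adjusted p = 0.000474). TENC1 counts rose in 4OHT by 0.85 with siSF3B1 and 0.86 with siRBM39 (edgeR, adjusted p = 1e-16 and 3.14e-16). PDLIM7, an actin-associated PDZ-LIM protein, was 12.8 points above siNT with siSF3B1 and 21.01 points above with siRBM39 in 4OHT, where its counts rose by 0.41 with siSF3B1 (edgeR, adjusted p = 3.6e-05) and differed by 0.09 with siRBM39 (edgeR, adjusted p = 0.374).

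siSF3B1 against siRBM39 called 468 short introns in DMSO (456 higher with siSF3B1 and 12 lower, 13.9%, where 6.59% of all introns were called) and 584 in 4OHT (566 higher and 18 lower, 17.4%, where 7.9% were called). The libraries did not overlap for 307 and 390 of them (9.13% and 11.6% of the short introns, where 3.87% and 4.9% of all introns were called without overlap). The share called was thus above that of all introns in a test that did not use siNT, and 1.77% and 2.13% of introns of at least 2000 nt were called.

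**Figure D3:**
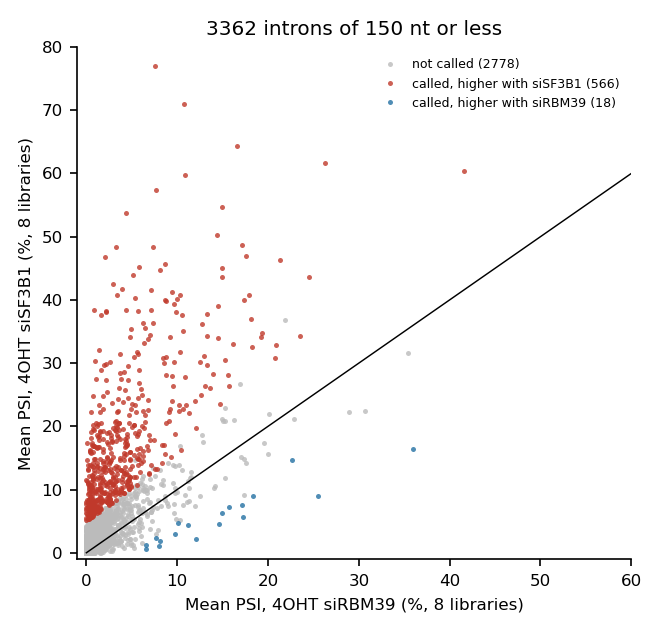
Mean PSI (percent) of each short intron in the 8 4OHT siRBM39 libraries (x axis) and the 8 4OHT siSF3B1 libraries (y axis). Of 3362 introns, 566 were called higher with siSF3B1, 18 higher with siRBM39 and 2778 were not called.

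The 18 introns that were lower with siSF3B1 than with siRBM39 in 4OHT were led by FAM38A, the mechanosensitive channel PIEZO1. PSI there was 4.42, 5.79 and 11.1 in 4OHT siNT, 14.1, 15.7 and 20.4 with siSF3B1, and 24.9, 31.4 and 54.7 with siRBM39. The ranges did not overlap, and siSF3B1 minus siRBM39 was -19.5 points in 4OHT and -12.7 in DMSO (limma, adjusted p = 1.76e-06 and 0.00146). FAM38A counts fell with siRBM39 by 0.68 in 4OHT and 0.49 in DMSO (edgeR, adjusted p = 3.14e-15 and 8.93e-11).

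COL7A1, the collagen of the anchoring fibrils, had 28 short introns. The 81-nt intron printed above had a PSI of 9.66, 13.6 and 16.9 in 4OHT siNT, 5.51, 9.01 and 12 with siSF3B1, and 19.5, 24.5 and 33.2 with siRBM39. Here siSF3B1 overlapped siNT from below, and siSF3B1 minus siRBM39 was -16.6 points (limma, adjusted p = 4.67e-08). A second COL7A1 intron of 81 nt (-9.82 points), PKD1, polycystin 1 (-11.5 points), INPPL1, the inositol phosphatase SHIP2 (-10.1 points), and RIOK3, a RIO family kinase (-9.54 points), made up the rest of the 6 most different. CTNAC was present in 11 of the 18 introns (61.1%), where 38.8% of all short introns placed on the annotation held it. The median length of the 18 was 84.5 nt, against 98 nt over all short introns. Neither difference was tested. ISCU, the scaffold of iron-sulphur cluster assembly, held the 1 short intron called lower than siNT with each knockdown in DMSO. Its PSI there was 4.76, 8.71 and 15 with siNT, 1.68, 3.49 and 6.67 with siSF3B1, and 0.71, 1.97 and 4.06 with siRBM39. In 4OHT it was 6.19, 7.46 and 10.7 with siNT, 3.31, 4.88 and 9.22 with siSF3B1, and 0, 1.91 and 5.21 with siRBM39.

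Differences between 4OHT and DMSO within a knockdown were smaller than those between the siRNA targets. Mean PSI was 0.688 points higher in 4OHT than in DMSO with siSF3B1 (exact permutation, n = 8 and 8, p = 0.000777, adjusted p = 0.00178, libraries overlapping) and 0.147 points higher with siRBM39 (exact permutation, p = 0.0238, adjusted p = 0.0238, overlapping). The second value did not hold in all settings: without replicate 1 or replicate 3 it was 0.137 and 0.133 points and no longer passed. The gap between short and long introns was 0.558 points wider in 4OHT with siSF3B1 and 0.171 points wider with siRBM39 (exact permutation, adjusted p = 0.00166 and 0.000497). At single introns, 26 were called with siSF3B1, all higher in 4OHT (0.773%, where 0.494% of all introns were called), and 16 with siRBM39, 12 higher and 4 lower (0.476%, where 0.414% were called). The shares are close to those of all introns. The difference of the siSF3B1 effects in 4OHT and DMSO, tested as an interaction with limma, was called for 5 short introns, where 0.0575% of all introns were called. Leaving out replicates moved the counts between treatments, to 13 without replicate 1, 16 without replicate 2 and 13 without replicate 3 for siSF3B1, and to 8, 5 and 5 for siRBM39.

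With siSF3B1 the largest of these differences was in DVL2, a second Dishevelled gene with 1 short intron of 140 nt. PSI was 16, 23.1 and 28.4 in DMSO siSF3B1 and 34.8, 41.6 and 58.3 in 4OHT siSF3B1, without overlap, a difference of 21.2 points (limma, adjusted p = 0.000479). LMBR1L (18.7 points), AMDHD2, a deacetylase of amino sugar metabolism (17.8), TRAF7, a RING and WD40 protein (17.1), SLC38A2 (14.7) and GLTSCR2, the nucleolar protein NOP53 (14.3), followed (limma, largest adjusted p = 0.0387). SLC38A2, a transporter of small neutral amino acids, had the AT-rich intron printed above. Its PSI was 3.41, 3.5 and 3.95 in DMSO siNT and 22.4, 26.5 and 30.9 with siSF3B1, then 0.59, 1.73 and 8.18 in 4OHT siNT and 29.1, 41.4 and 47.9 with siSF3B1. With siRBM39 it was 1.83, 3.83 and 5.1 in DMSO and 1.41, 3.53 and 5.14 in 4OHT, within reach of siNT.

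With siRBM39, the 6 introns most above DMSO in 4OHT were led by PPP4C (14.7 points, limma, adjusted p = 0.00356). The others were 2 introns of AGRN, the basement membrane proteoglycan agrin (10.7 and 9.73 points), 1 of LAMB2, laminin β2 (9.65), 1 of PKD1 (8.68) and 1 of COL7A1 (8.62). The first AGRN intron, of 131 nt and balanced in all libraries, went from 3.71, 5.58 and 7.23 in DMSO siRBM39 to 11.3, 15.5 and 24.9 in 4OHT siRBM39 (limma, adjusted p = 5.03e-08). It was also higher in 4OHT with siSF3B1 (10.3 points, limma, adjusted p = 5.02e-05), and stood at 1.22, 2.39 and 3.12 in DMSO siNT and 5.3, 6.38 and 11 in 4OHT siNT. Among the lower introns were those of CRYZ, a quinone reductase (-11.3 points), ULK1, the kinase that starts autophagy (-7.29), and PLK3, a polo-like kinase (-5.64). From DMSO siNT to 4OHT siNT, mean PSI also went from 12.9 to 6.94 in ULK1 and from 4.92 to 2.58 in PLK3. ULK1 had a median of 25.5 and 20.5 reads with siRBM39 in DMSO and 4OHT. At these depths a count of 0 allows a PSI of up to 11.8 and 14.6. CRYZ had a PSI of 6.67, 16.3 and 25.3 in DMSO siRBM39 and 2.78, 5.2 and 9.09 in 4OHT siRBM39, against at most 4.69 in any siNT library.

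The number of introns called differed from gene to gene. With siSF3B1 in 4OHT, 446 genes had a called short intron and 139 of them had 2 or more, whereas 881 of the 1563 genes hold only 1 short intron. Of the 140 genes with at least 5 short introns, 49 had none called, 89 had some and 2 had all of them. TRAF7 had all of its 6 called, FASN 10 of 18, CPSF1, the largest subunit of the cleavage and polyadenylation factor, 8 of 17, PLXNB2, a semaphorin receptor, 7 of 15, PPP1R12C, a myosin phosphatase subunit, 7 of 9, and AGRN 6 of 15. COL1A1, the α1 chain of collagen I, had 1 of 26. COL1A1 is so abundant that this 88-nt intron had a median of 3666 junction reads per library, and its PSI was 1.63, 2.04 and 2.3 in 4OHT siNT, 7.88, 8.56 and 9.44 with siSF3B1 and 2.2, 3.99 and 5.59 with siRBM39. FASN, fatty acid synthase, had a mean PSI over its 18 short introns of 0.36, 0.598 and 0.913 in 4OHT siNT, 5.78, 7.59 and 9.87 with siSF3B1 and 0.989, 1.35 and 1.71 with siRBM39. FASN counts fell by 1.10 ± 0.08 in 4OHT siSF3B1 and by 1.12 ± 0.08 in DMSO siSF3B1 on the log2 scale (edgeR, adjusted p = 7e-17 and 5.51e-17).

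For gene lists, the share of short introns called against siNT with siSF3B1 in 4OHT is a description, since siNT chose the introns. It was 20.9% over all short introns and 9.65% over all introns. Introns of a gene are not independent, and whether lists differ beyond chance was not tested. Some lists are small: the 16 introns of mitosis and cell cycle genes lie in 9 genes. All called introns in the lists were higher. Among regulators, 7 of 16 introns of mitosis and cell cycle genes were called (43.8%, with ANAPC2, a subunit of the anaphase-promoting complex, at 34.8 points and CDK4, the G1 kinase, at 13.4), 13 of 44 of RAS and MAPK genes (29.5%, with RIN1 at 25.9 points), 16 of 59 of chromatin genes (27.1%), 22 of 85 of RNA polymerase II and elongation genes (25.9%) and 3 of 16 of replication and repair genes (18.8%, with MMS19, an iron-sulphur targeting factor, at 9.67 points). Spliceosome genes had 21 of 125 (16.8%, with FAM50A at 35.3 points and HNRNPUL2 at 25.2).

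Among housekeeping and cell structure genes, 19 of 92 introns of mitochondrial and metabolic genes were called (20.7%), 15 of 77 of vesicle traffic genes (19.5%, with the SNARE protein STX4 at 35.4 points), 6 of 37 of aminoacyl-tRNA synthetases (16.2%, with MARS at 19.6 and QARS at 10.9), 6 of 37 of lysosomal genes (16.2%), 27 of 180 of cytoskeleton and adhesion genes (15%), and 11 of 84 of proteasome and ubiquitin genes (13.1%, with 2 introns of FBXW5 at 32.2 and 31.6 points). Collagen and matrix genes had 19 of 202 (9.41%), ribosomal protein and translation factor genes 5 of 55 (9.09%, with EIF3G at 17.3 points) and the fibroblast marker genes 1 of 49 (2.04%). No marker gene of other cell types held a short intron. The genes that the study had put in an siRNA screen after SF3B1 knockdown had 63 of 219 (28.8%), and 50 of 67 of them fell in counts. That list was drawn from knockdown effects in such cells and is not independent evidence of its direction.

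Counts of the genes were then set beside the retention of their introns. Of the 1563 genes, 1531 matched the count table by symbol and 1525 had enough counts to be tested with edgeR's quasi-likelihood test. With siSF3B1 in 4OHT, 435 tested genes had a short intron called higher: 192 of them fell (44.1%) and 127 rose (29.2%), where 37.6% of all genes tested fell and 39.4% rose. Of the 1090 with none called, 431 fell (39.5%) and 385 rose (35.3%). With siSF3B1 in DMSO, 156 of 384 fell (40.6%) and 120 rose (31.3%), where 36.2% of all genes fell and 36.5% rose, against 32.2% and 37.3% with none called.

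For siRBM39 the numbers were smaller. In 4OHT, 30 of 84 genes with a called intron fell (35.7%) and 23 rose (27.4%), where 24.3% of all genes fell and 32.2% rose, and 24.5% of the 1439 with none called fell. In DMSO, 27 of 77 fell (35.1%) and 12 rose (15.6%), where 22.2% of all genes fell and 23.9% rose, and 19.9% of the 1447 with none called fell. In each of the 4 comparisons a larger share of genes fell where an intron was called, but in none did most of those genes fall. Whether the shares differ beyond chance was not tested.

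The size of the retention and the fall in counts did not go together step by step. The median log2 fold change of the 435 genes was -0.10, and 26 of them (5.98%) fell at least 2-fold. Of all genes tested 8.12% did, and of the 1090 genes with short introns and none called 5.41% did. By the largest difference among the short introns of a gene in 4OHT siSF3B1, the share that fell was 38.4% below 1 point (688 genes), 41.2% at 1 to 5 points (398), 43.3% at 5 to 10 (187), 50.7% at 10 to 20 (148) and 37.5% at 20 points or more (104). In DMSO it was 30.3%, 35.4%, 42.5%, 47.01% and 27.6%. In both treatments the share was lower at 20 points or more than in the class before it, a difference that was not tested. Across 3287 introns, the difference in PSI and the log2 fold change of the gene had r = 0.018 (rho -0.028) with siSF3B1 in 4OHT, 0.005 (-0.053) in DMSO, and -0.086 (-0.103) and -0.107 (-0.108) with siRBM39. Introns of a gene share its counts, and both values share the siNT libraries, so these are descriptions with no p.

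The reading frame was set beside the counts in the same way. In 4OHT siSF3B1, 136 of 289 genes fell where a called intron brings a stop codon (47.1%), 58 of 136 where it shifts the frame without a stop of its own (42.6%) and 17 of 49 where it stays in frame (34.7%). In DMSO the shares were 42.5% of 252, 38.7% of 124 and 26.2% of 42. A gene can count in more than 1 class, and the differences were not tested.

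Single genes showed both directions. Of genes with a called intron in 4OHT siSF3B1, EIF2B2, a subunit of the translation factor eIF2B, fell most, by 2.17 ± 0.09 on the log2 scale (edgeR, adjusted p = 3.5e-26). Its 121-nt intron had a PSI of 0, 3.03 and 5.26 in 4OHT siNT, 27.3, 33.5 and 45.2 with siSF3B1 and 1.45, 6.13 and 11.4 with siRBM39. EIF2B2 counts fell with siRBM39 as well, by 1.01 (edgeR, adjusted p = 2.57e-14), although its intron was not called there.

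DDX1, an RNA helicase, fell by 1.89 with an intron only 6.49 points above siNT, and COPA, a coatomer subunit, fell by 1.52 with 6.32 points. APEH, a serine peptidase, fell by 1.51 with siSF3B1 and 12.6 points, and fell by 1.68 with siRBM39, where the intron was 3.26 points above siNT and not called (edgeR, adjusted p = 3.66e-25). VASP, which extends actin filaments, fell by 1.59 ± 0.09 (edgeR, adjusted p = 3.51e-20). Its balanced 94-nt intron had a PSI of 0, 0 and 1 in 4OHT siNT, 12.7, 23.2 and 26.6 with siSF3B1, and 0, 0.135 and 3.14 with siRBM39, where VASP counts differed by -0.06 (edgeR, adjusted p = 0.619). In siNT a count of 0 at the depth of this intron allows a PSI of up to 1.81.

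Of the genes that rose with a called intron, RNF44 led (1.55 on the log2 scale), before PIM3, a serine/threonine kinase (1.41), CTGF, a matricellular protein (1.27), KIAA0415, a subunit of the adaptor complex AP-5 (1.18), and SPSB3, a SOCS box protein (1.16). SPSB3 had the largest difference of the last 4: a PSI of 1.89, 2.29 and 10.8 in 4OHT siNT became 31.8, 42 and 48 with siSF3B1. CTGF rose by 1.27 with siSF3B1 and fell by 0.38 with siRBM39 in 4OHT (edgeR, adjusted p = 1.73e-23 and 7.81e-07), while its intron was 12.2 points above siNT with siSF3B1 and 0.367 with siRBM39.

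At the limit of the rule, the members just inside were the introns of ULK1 and GIGYF1, each with a mean siNT PSI of 9.94. Just outside were introns of C19orf6 at 10.01 and TSPAN17 at 10.2.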

How the data were processed

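Polyadenylated RNA was sequenced by the authors in 48 libraries, and 4 replicates per siRNA are labelled. The deposited PSI values are percentages from vast-tools, and the deposited quality column beside each holds corrected read numbers, a coverage score and a balance p-value. The deposited gene table holds raw read counts. Tables of cRPKM and of normalised CPM were not used. The submitters' notes name hg19, edgeR and limma, but the event coordinates lie in another build, so only GRCh37 coordinates matched by intron and exon lengths are printed. The 4OHT siNT2 libraries were grouped by title, since 1 label field calls them siNT1.

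Members and gene lists were chosen with earlier results of these data known. PSI fractions were squeezed (0.01 + 0.98 × fraction), logit transformed and fitted with limma 3.58.1 over 6 groups and 26089 introns (R 4.3.3). A call needed a difference of at least 5 points and p under 0.05 after Benjamini-Hochberg adjustment. Counts of 9991 genes with at least 10000 counts in total were fitted with edgeR 4.0.16 (TMM, quasi-likelihood). Mean PSI was compared by two-sided exact permutation over libraries (scipy 1.17.1), with 16 tests adjusted together. On simulated data limma recovered 199 of 200 changed introns with 1 false call (siSF3B1 in 4OHT, 26089 introns). For the same comparison edgeR recovered 200 of 200 changed genes with 6 false calls (9991 genes). The changed introns were simulated with a rise well above the 5-point limit and at a fixed read depth. How recovery varies with the size of the change or with read depth was not tested. These numbers therefore do not cover calls near the limit.

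The text names the CHD4 intron, those with the largest called differences without overlap against siNT, those with the largest called differences between knockdowns and between treatments, those whose gene rose or fell most, up to 2 per gene list, the genes with most called introns, and the introns at the limit of the rule. The values of 2 such introns are not reported here. Alternatives were other filters on balance, coverage, length, siNT PSI and size of difference, other scales, fits and siRNAs, and each replicate left out. Numbers did not pair the samples: same-numbered libraries correlated from -0.0476 to 0.0535 in PSI and from -0.898 to 0.79 in gene counts (medians 0.00259 and 0.0123) over 264 pairs. Replicates differed beyond sampling noise (chi-square per degree of freedom from 2 to 583). Genes overlapping on the other strand may share reads, and strand use in counting is not given in the sources used here. Sequences were read with pysam 0.24.0.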

Additional observations from a re-analysis of the deposited data

Results flagged for a closer look

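Short introns with a different effect of siSF3B1 in 4OHT and DMSO were few. A limma interaction over all introns called 5 of the 3362 and 15 of all 26089 introns (0.0575%). SLC38A2 (112 nt) was 22.5 points above siNT in DMSO and 38.1 points in 4OHT, a difference of 15.6 (adjusted p = 0.0302). ZNF266 (90 nt) was 2.17 and 11.4 points above siNT, a difference of 9.25 (adjusted p = 0.00292), LRP1 (101 nt), at 0 in every siNT library, 5.59 and 14.6 points, a difference of 9.03 (adjusted p = 0.0315), and FASN (82 nt) 4.69 and 11.3 points, a difference of 6.57 (adjusted p = 0.0058). ACADVL (74 nt) went the other way, with 8.70 and 2.36 points and a difference of -6.35 (adjusted p = 0.0428). Its siNT PSI was 5.88 ± 2.37 in DMSO and 13.3 ± 2.64 in 4OHT (SD, n = 8), so the siNT level moved as well. For siRBM39 limma called 0 short introns, with 118 at an unadjusted p under 0.05, against 333 for siSF3B1.

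Of 66 groups of 8 libraries screened, 10 held 1 library whose gap to the next was large for its range by Dixon's test, where chance gives about 1 in 20. In DMSO siNT the lowest library had short introns only 0.231 points above long ones, and in DMSO siSF3B1 the highest library had a mean PSI of 4.39 over short introns and stood 3.40 points above long ones. Single introns with 1 high library were CHD4 in 4OHT siNT (PSI 16.4), HSF1 in DMSO siNT (14.7) and DMSO siSF3B1 (81.5), GIGYF1 in DMSO siSF3B1 (76.6), PPP4C in DMSO siNT (17.1), FAM38A in DMSO siSF3B1 (29.6) and ILK in 4OHT siSF3B1 (48.3).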

How the results depend on the processing

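Counts of called introns, given for siSF3B1 and siRBM39 against siNT (DMSO and 4OHT each), siSF3B1 against siRBM39 (DMSO and 4OHT) and 4OHT against DMSO (siSF3B1, siRBM39), moved with the filters, and the cause was not tested. They were 152, 201, 10, 14, 119, 166, 8 and 2 among balanced introns, 270, 350, 28, 32, 213, 306, 11 and 3 at a minimum of 10 points, and 1547, 1723, 252, 286, 1283, 1490, 149 and 42 with no minimum. Up to 100 nt the first 7 were 362, 428, 45, 59, 284, 363 and 14, and with the plain logit on the 104 introns always at a PSI of 1 to 99 they were 85, 84, 38, 47, 65, 73 and 6. For siRBM39 in DMSO the count was 62 at a coverage score of LOW or better, 57 with siRBM39-06 alone and 53 with siNT PSI below 5 (66 in 4OHT). For 4OHT against DMSO with siSF3B1 it was 121 with limma on percentage points and 56 at a probability of difference of at least 0.8. It was 10 with siSF3B1-16 alone and 13 to 20 with each replicate left out. With siRBM39 it was 3 in a fit of the 2 groups alone, 3 with siRBM39-06, 7 with siRBM39-08 and 9 with siNT PSI below 5. It was 5 to 11 with each replicate left out. Genes of short introns past a 2-fold change numbered 65, 109, 6, 14, 28, 59, 107 and 107. The difference in mean PSI between 4OHT and DMSO with siRBM39 was 0.0504 among balanced introns, 0.00875 for the median over introns (as was the gap to long introns) and 0.128 to 0.163 with each replicate left out (no longer passing at 0.137 and 0.133 without replicate 1 and 3). Against siNT2 the medians over introns were 0 in DMSO and 0.00688 in 4OHT for siRBM39, also for the gap. The replicate block gave 603, 702, 95, 107, 465, 586, 26 and 17 introns and changed no count by over 1.5 times. Of the other values, 366 summary results and 1744 of single introns and genes kept direction and side of the threshold, and 89 single values no longer passed. Among genes with a balanced called intron in 4OHT siSF3B1, 50.3% fell, and 37.5% at a difference of at least 20 points (both settings chosen after seeing the data). Depth limits low PSI: 5% of values rest on fewer than 22.96 reads, at which a count of 0 allows a PSI of up to 13.1.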
